A study of Fukomys damarensis and Heterocephalus glaber and Cavia porcellus with 28 samples.

Results

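The circadian clock genes described here are 10 listed genes: Clock, Per1, Per2, Per3, Cry1, Cry2, Nr1d1, Nr1d2, Dbp and Tef. They were looked up by symbol among the mouse gene identifiers of a heart table and a liver table of 13928 rows each. A row was found for 8 of the 10 in both tables, and all 8 passed the filter on low values in both tissues. Per3 and Nr1d2 were not analysed here. The tables hold total RNA depleted of ribosomal RNA from the heart and liver of 4 rodents. These are the naked mole-rat (Heterocephalus glaber) and the Damaraland mole-rat (Fukomys damarensis), both subterranean African species, with the guinea pig (Cavia porcellus) and the mouse (Mus musculus) as outgroups. Heart came from 3 naked mole-rats aged 13 to 17 months, 5 Damaraland mole-rats aged 36 or 48 months, 3 guinea pigs aged 2.3 months and 3 mice aged 2 months. Liver came from 4, 5, 3 and 2 animals of the same species and ages. All were male except the Damaraland mole-rat of liver replicate 4. Of 18 animals, 10 gave both tissues. The age label of 1 Damaraland mole-rat is 48 months at its heart and 36 months at its liver. The labels give no strain, genotype or treatment for any group, no light cycle and no hour of sampling. Age followed species, so the effects of age and species cannot be told apart.

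The clock is a feedback loop of transcription that runs in nearly every mammalian cell. The CLOCK protein pairs with BMAL1, the product of Arntl, and this pair switches on the Per and Cry genes, whose proteins return to the nucleus and block it. The pair also drives Nr1d1, which encodes a haem-binding nuclear receptor that represses Arntl, and Dbp, which with Tef belongs to the PAR bZIP transcription factors that pass the rhythm on to output genes. In mouse heart and liver most of these transcripts rise and fall over the day, with Dbp and Nr1d1 low when Arntl is high, so a level measured once depends on the hour at which the tissue was taken.

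Levels are given as scaled reads, meaning the reads recovered from the deposited values and divided by the library's size factor. Differences are on the deposited log2-like scale, which compresses rare genes: a 2-fold change from 10 scaled reads moves the value by 0.28 in heart and 0.39 in liver, and from 1000 scaled reads by 0.95 and 0.97. Neither scale corrects for gene length, so levels of different genes are not compared with each other. The length and assignment of a gene may also differ between species, and their part in the species differences was not tested. Libraries held 4089633 to 26985779 recovered reads in heart and 11220505 to 21467939 in liver, and the lowest was naked mole-rat heart replicate 3. The 6 cardiomyocyte markers together took 9.09% to 12.0% of reads in Damaraland hearts, 3.09% to 5.49% in naked mole-rat, 5.43% to 6.50% in guinea pig and 5.397% to 5.67% in mouse hearts. In liver 5 hepatocyte markers took 13.2% to 15.7% in Damaraland, 10.5% to 17.4% in naked mole-rat, 7.998% to 11.6% in guinea pig and 7.92% to 9.10% in mouse livers. The same 5 hepatocyte markers took 0.0743% to 0.196% of reads in naked mole-rat hearts, 0.0125% to 0.0389% in Damaraland, 0.00310% to 0.0158% in guinea pig and 0.00175% to 0.00634% in mouse hearts, and all 5 were called higher in mole-rat hearts. In liver both adipocyte markers and Epcam, 1 of 2 bile duct markers, were called higher in mole-rats. Called lower were Dcn, 1 of 3 fibroblast or stellate cell markers, Cd3e, 1 of 4 leukocyte markers, and Alas2. The median difference was 0.23 for the fibroblast or stellate cell markers and -0.29 for the leukocyte markers. The adipocyte markers took 0.00419% to 0.0278% of reads in Damaraland livers, 0.000129% to 0.000502% in naked mole-rat, 0.0000304% to 0.0000606% in guinea pig and 0.00000891% to 0.0000272% in mouse livers. Alas2, an erythroid gene, was also called lower in mole-rat heart. The part of these markers in the clock results was not tested. In bulk tissue, fewer cells of a type and less RNA per cell cannot be told apart. Naked mole-rat liver replicate 3 stood apart from the other naked mole-rat livers for Dbp, Per2 and Nr1d1, and was also their lowest for Cry2, Per1 and Tef. A check of gap against range in the naked mole-rat livers and both Damaraland tissues flagged 0 of 24 comparisons. The average differences of Per2, Nr1d1, Dbp and Tef in liver, and the spreads of the listed genes, are given with and without it. Other liver contrasts are given without it only in part, and genes outside the list only with it. The order against Arntl, the order of animals in both tissues and the likeness of profiles are given only with it.

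In liver 6 of the 8 clock genes were called different between the mole-rat and the outgroup average, at a difference of at least 1. In heart 1 was. In liver the mole-rat average was higher for Per1 and Cry1 and lower for Per2, Cry2, Nr1d1 and Dbp. In heart it was lower for Dbp. Of these, only Nr1d1 in liver was called for each mole-rat against each outgroup. A gene was called, with limma, at a Benjamini-Hochberg adjusted p under 0.05 over all genes tested and a difference of at least 1 between the mean of the mole-rat species and the mean of the outgroup species. By this rule 28.1% of all genes tested were called in liver, 15.1% higher and 13% lower, and 23.4% in heart, 10.8% higher and 12.6% lower. The median difference of the 8 genes was -0.82 in liver, beside 0.02 over all genes tested, and 0.38 in heart, beside -0.01. In heart another 6 had an adjusted p under 0.05 with a difference smaller than 1, as Clock and Tef had in liver. The counts of the tissues thus depend on the size threshold. With quantile normalization, or with voom on the recovered reads, 2 clock genes were called in heart, Dbp lower and Tef higher. Between heart and liver the differences were not tested, since the tables were normalised separately.

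**Figure D1:**
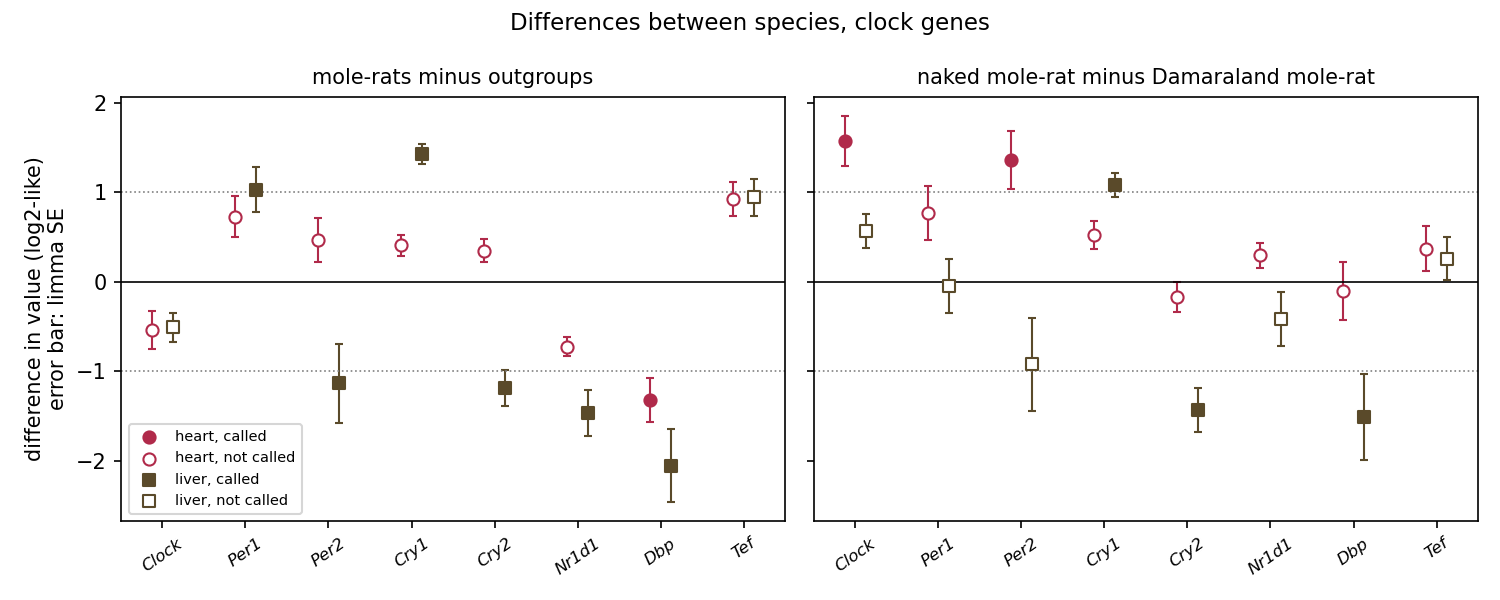
Differences between species of the 8 clock genes on the log2-like scale (vertical axis), mole-rats minus outgroups on the left and naked minus Damaraland mole-rat on the right. Points are limma differences with their SE, circles for heart and squares for liver, filled where called, and dotted lines mark a difference of 1. Dbp lies furthest below 0 in the left panel, at -1.32 in heart and -2.05 in liver.

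Each species was also compared with the 3 others, and a gene could be called against each of them in the same direction. In liver 5 of 8 were: Per1 and Cry1 lower in the mouse, Cry2 and Dbp lower in the naked mole-rat and Tef lower in the guinea pig. In heart 2 of 8 were: Cry2 lower in the mouse and Tef lower in the guinea pig. Over all genes tested 36.5% met this for some species in liver and 30.2% in heart. No clock gene met it for the Damaraland mole-rat. Between the mole-rats, 3 of 8 were called in liver, with Cry1 higher and Cry2 and Dbp lower in the naked mole-rat, and 34.2% of genes tested were. In heart 2 of 8 were called, Clock and Per2, both higher in the naked mole-rat, and 29.4% of genes tested were. Against the guinea pig, 5 of 8 were called in naked mole-rat liver (37.8% of genes tested) and 2 in Damaraland liver (36.2%), and 1 in the heart of each (33% and 29.7%). Against the mouse, 5 were called in each mole-rat liver (41.2% for the naked and 39.2% for the Damaraland mole-rat), and 5 and 4 in their hearts (38.2% and 34.9%). Between guinea pig and mouse 3 were called in liver (37.2%) and 5 in heart (32.1%). These contrasts share libraries, so their counts are not independent. By ranges alone, every mouse library lay outside all others for 4 of 8 genes in heart, with Cry1 and Cry2 lower and Nr1d1 and Dbp higher, and for 3 of 8 in liver, with Per1 and Cry1 lower and Dbp higher, beside 31% of genes tested in each tissue. Every guinea pig library did so for Cry2 (higher) and Tef (lower) in heart and Tef (lower) in liver, beside 21.5% and 22.1% of genes tested. Every naked mole-rat library did so for Cry1 (higher) and Cry2 (lower) in liver, beside 23.1%.

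Clock (ENSMUSG00000029238) encodes the activator subunit that pairs with BMAL1, and its lowest mean was in the Damaraland mole-rat in both tissues. In heart, in replicate order, its scaled reads were 1304, 1035 and 1756 in naked mole-rats, 666, 405, 405, 497 and 164 in Damaraland mole-rats, 942, 743 and 610.2 in guinea pigs and 1711, 1361 and 1796 in mice. All 5 Damaraland hearts were below every naked mole-rat and mouse heart, and the naked mole-rat and mouse ranges overlapped. Naked minus Damaraland mole-rat was 1.58 ± 0.28, adjusted p = 0.000116, a 3.19-fold difference of the mean scaled reads. Damaraland mole-rat minus mouse was -1.84 ± 0.28, adjusted p = 2.06e-05, or 3.80-fold lower. Guinea pigs were also below mice (-1.02 ± 0.31, adjusted p = 0.00944), a call lost without guinea pig replicate 3 (-0.88) or mouse replicate 1 (-0.98) or 3 (-0.95), with libraries centred on their median (-0.995), with quantile normalization (-0.93) and with sample weights (-0.98). Mouse and naked mole-rat, the neighbours at the top of the order, differed by -0.26 (adjusted p = 0.48). Scaled reads in liver were 723, 616, 651 and 468 in naked mole-rats, 272, 417, 468, 383 and 480.1 in Damaraland mole-rats, 613, 578 and 517 in guinea pigs and 1238 and 647 in mice. All 5 Damaraland livers were below all 3 guinea pig and both mouse livers, and their range overlapped that of the naked mole-rat. Damaraland mole-rat minus mouse was -1.10 ± 0.24, adjusted p = 0.000668, and this call was lost without mouse replicate 1 (-0.66) or Damaraland replicate 1 (-0.98). Without 1 mouse liver a single one is left, which is then assumed to vary like the other groups. The average of the mole-rats minus that of the outgroups was -0.54 ± 0.21, adjusted p = 0.0314, in heart and -0.51 ± 0.16, adjusted p = 0.0107, in liver, below the size threshold in both.

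Per1 (ENSMUSG00000020893) and Per2 (ENSMUSG00000055866) encode period proteins, the repressors that block CLOCK and BMAL1 together with the cryptochromes. Per1 was higher in naked mole-rat than in mouse heart, and in liver it was lower in the mouse than in each other species. Per1 scaled reads in heart were 972, 1208 and 2567 in naked mole-rats, 1224, 756, 739.9, 997 and 523 in Damaraland mole-rats, 823, 686 and 756 in guinea pigs and 362, 894 and 427 in mice. Naked mole-rat replicate 3, the library of lowest depth, was the highest. The other naked mole-rat hearts lay within the Damaraland range and above every guinea pig and mouse heart, and guinea pig and mouse ranges overlapped. Naked mole-rat minus mouse was 1.35 ± 0.34, adjusted p = 0.00235, and without that library 0.95 and not called, and with sample weights 0.87 and not called. Without naked replicate 1, the naked mole-rat was instead called higher than all 3 other species, by 1.04 against the Damaraland mole-rat. In liver, Per1 scaled reads were 683, 1524, 543 and 905 in naked mole-rats, 614, 1004, 769, 685 and 1587 in Damaraland mole-rats, 669, 1089 and 666 in guinea pigs and 138 and 283 in mice. Both mice were below all 12 other livers, and the ranges of the other 3 species overlapped. The mouse was called lower than each of them, with Per1 4.34-fold higher in naked mole-rats, 4.43-fold in Damaraland mole-rats and 3.84-fold in guinea pigs by mean scaled reads. Neither mole-rat was called against the guinea pig (0.10 and 0.15, adjusted p = 0.802 and 0.7). The average mole-rat difference, 1.03 ± 0.25, adjusted p = 0.00166, was just past the size threshold, and without guinea pig replicate 1 or 3, Damaraland replicate 5, naked replicate 2 or mouse replicate 1 it was 0.97, 0.97, 0.92, 0.89 and 0.81, none of them called.

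For Per2 the naked mole-rat had the highest mean of the species in heart and the lowest in liver. Its scaled reads in heart were 145, 437 and 426 in naked mole-rats, 48.9, 66.3, 32.2, 196 and 105 in Damaraland mole-rats, 190.4, 186 and 170.3 in guinea pigs and 41.1, 99.6 and 23.3 in mice. Naked mole-rat replicates 2 and 3 were above all other hearts, and the Damaraland and mouse ranges overlapped. Naked minus Damaraland mole-rat was 1.37 ± 0.32, adjusted p = 0.00159, a 3.75-fold difference, and naked mole-rat minus mouse was 1.72 ± 0.36, adjusted p = 0.000536. Guinea pig minus mouse was 1.14 ± 0.36, adjusted p = 0.0122, and without mouse replicate 3 it was 0.92 and not called. The neighbours naked mole-rat and guinea pig differed by 0.58 (adjusted p = 0.177). Liver scaled reads were 94.4, 149, 3.39 and 178 in naked mole-rats, 150.4, 288, 57.9, 121 and 428 in Damaraland mole-rats, 257, 686 and 324 in guinea pigs and 173 and 297 in mice. Naked mole-rat replicate 3 rested on 4 recovered reads, and the other 3 naked mole-rat livers lay within the Damaraland range. The lowest guinea pig liver was above all 4 naked mole-rat livers, and naked mole-rat minus guinea pig was -1.93 ± 0.59, adjusted p = 0.00833. Without naked replicate 3 this difference was -1.29 (adjusted p = 0.0237). Without guinea pig replicate 2 it was -1.55 (adjusted p = 0.0512) and not called. Mole-rats minus outgroups was -1.13 ± 0.44, adjusted p = 0.0298, a call lost with no filter on low values (adjusted p = 0.0782) and without naked replicate 3 (-0.81), Damaraland replicate 3 (-0.99), guinea pig replicate 2 (-0.94) or mouse replicate 2 (-0.97).

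**Figure D2:**
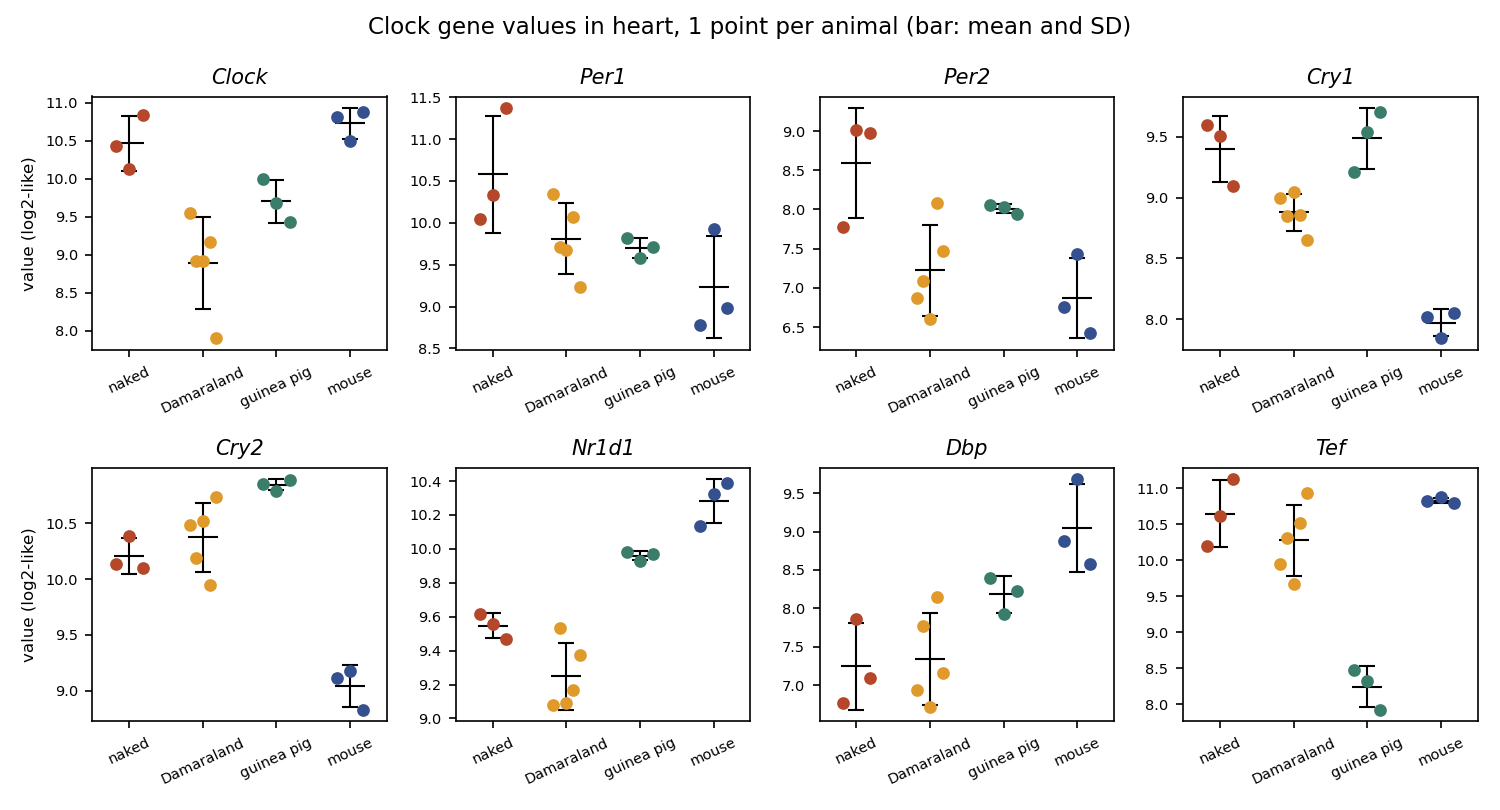
Deposited log2-like values of the 8 clock genes in heart (vertical axis) for naked mole-rat (n = 3), Damaraland mole-rat (n = 5), guinea pig (n = 3) and mouse (n = 3), with 1 point per animal and bars for mean and SD. Tef of the guinea pig and Cry1 and Cry2 of the mouse lie below all other libraries, and for Nr1d1 both mole-rats lie below both outgroups.

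Cry1 (ENSMUSG00000020038) encodes a cryptochrome, the partner of the period proteins in repression. In liver it was highest in the naked mole-rat and lowest in the mouse, and in heart it was again lowest in the mouse. In liver its scaled reads were 966, 1239, 1055 and 1228 in naked mole-rats, 547, 441, 509, 599 and 457 in Damaraland mole-rats, 631, 664 and 592 in guinea pigs and 81.4 and 109 in mice. The 4 naked mole-rats were above and the 2 mice below all other livers, with no overlap on either side. Naked mole-rats were 2.20-fold above Damaraland mole-rats (1.08 ± 0.13, adjusted p = 1.52e-06) and 11.8-fold above mice (3.15 ± 0.17, adjusted p = 7.43e-11). Guinea pigs stood between the mole-rats: Damaraland mole-rat minus guinea pig was -0.29 ± 0.14, adjusted p = 0.0881. The average mole-rat difference was 1.43 ± 0.11, adjusted p = 6.24e-09, and the low mouse mean enters it. In heart, Cry1 scaled reads were 693, 648 and 467 in naked mole-rats, 431, 383, 448, 384 and 323 in Damaraland mole-rats, 514, 662 and 754 in guinea pigs and 184, 155 and 189 in mice. Mice were again below all other hearts, and the naked mole-rat and guinea pig ranges overlapped. In heart the mouse was called lower than the naked mole-rat (1.43 ± 0.18, adjusted p = 2.59e-06) and the guinea pig (1.51 ± 0.18, adjusted p = 1.68e-06), and the difference from the Damaraland mole-rat was 0.91 ± 0.16, adjusted p = 9.21e-05, under the size threshold.

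Cry2 (ENSMUSG00000068742), the other cryptochrome, was lowest in a different species in each tissue. In liver its scaled reads were 122, 101, 59.3 and 123 in naked mole-rats, 454, 386, 198, 268 and 379 in Damaraland mole-rats, 266, 589 and 487 in guinea pigs and 439 and 579.9 in mice. All 4 naked mole-rats were below every other liver, and the other 3 species overlapped. Naked mole-rats were 3.33-fold below Damaraland mole-rats (-1.43 ± 0.24, adjusted p = 5.65e-05), 4.42-fold below guinea pigs (-1.79 ± 0.28, adjusted p = 2.22e-05) and 5.03-fold below mice (-2.01 ± 0.31, adjusted p = 2.56e-05). Over the fits that each left out 1 library, these differences ran from -1.59 to -1.26, from -2.09 to -1.57 and from -2.20 to -1.83. The Damaraland mole-rat was called against neither outgroup (-0.36 and -0.58, adjusted p = 0.247 and 0.102), so the called average, -1.18 ± 0.20, adjusted p = 6.86e-05, held 1 mole-rat species that was called and 1 that was not. Cry2 scaled reads in heart were 1042, 1259.6 and 1015 in naked mole-rats, 1349.7, 1089, 1386, 904 and 1625 in Damaraland mole-rats, 1766, 1695 and 1820.3 in guinea pigs and 475, 499 and 376 in mice. The 3 mice were below and the 3 guinea pigs above all other hearts, and the mole-rats overlapped. Naked mole-rat minus mouse was 1.17 ± 0.19, adjusted p = 5.14e-05. Guinea pigs, the highest, were 3.91-fold above mice (1.81 ± 0.19, adjusted p = 5.40e-07).

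Nr1d1 (ENSMUSG00000020889), the repressor of Arntl, was the 1 gene of the list for which every mole-rat library was below every outgroup library in both tissues. Over all genes tested, 7.59% had all mole-rat libraries below all outgroup libraries in heart and 7.37% in liver. Scaled reads in heart were 704, 672 and 629.7 in naked mole-rats, 462, 661, 466, 497 and 584 in Damaraland mole-rats, 929, 893 and 924 in guinea pigs and 1045, 1198 and 1257 in mice. The lowest outgroup heart stood at 893 and the highest mole-rat heart at 704. In liver they were 539.6, 325, 111 and 430.5 in naked mole-rats, 408, 555, 338, 319 and 558 in Damaraland mole-rats, 788, 986 and 928 in guinea pigs and 1652 and 963 in mice. Naked mole-rat replicate 3 was the lowest by a wide margin, and the other 8 mole-rat livers ran from 319 to 558. By mean scaled reads the mole-rats were 2.81-fold lower in liver and 1.73-fold lower in heart. The liver difference was -1.46 ± 0.26, adjusted p = 8.43e-05, and all 4 contrasts of a mole-rat with an outgroup were called, from -1.02 to -1.91. Nr1d1 was the 1 clock gene of 8 called in all 4 contrasts in liver, where 6.29% of genes tested were. The Damaraland mole-rat minus guinea pig contrast (-1.02 ± 0.33, adjusted p = 0.0127) was the narrowest, and it was -0.95, -0.99, -0.94 and -0.92 without guinea pig replicate 2 or 3 or Damaraland replicate 3 or 4. Without mouse replicate 1 the Damaraland minus mouse contrast was -1.12 (adjusted p = 0.0705). Without naked replicate 3 the average was -1.26 and naked mole-rat minus guinea pig was -1.02, close to the size threshold, both still called. In heart the average difference was -0.72 ± 0.10, adjusted p = 1.24e-05, under the size threshold. Damaraland mole-rat minus mouse was the 1 heart contrast called (-1.03 ± 0.14, adjusted p = 5.91e-06), and it was -0.99, -0.99 and -0.98 and not called without Damaraland replicate 1 or 3 or mouse replicate 3. It was also lost with libraries centred on their median (-0.97) and with quantile normalization (-0.96). By limma 0 of 8 clock genes were called in all 4 contrasts in heart, where 4.68% of genes tested were, and voom on the recovered reads also gave 0. At an unadjusted p under 0.05 in all 4, with the same sign, there were 2, Nr1d1 and Dbp.

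Dbp (ENSMUSG00000059824), an output transcription factor known for a wide daily swing in mouse liver, had the largest average difference of the list in both tissues, lower in mole-rats. Its scaled reads in heart were 42.3, 158 and 66.7 in naked mole-rats, 54.1, 144, 38.7, 208 and 71.8 in Damaraland mole-rats, 259.9, 167 and 222 in guinea pigs and 393, 741 and 303 in mice. The 3 mice were above all other hearts, and the mole-rat ranges overlapped each other. All naked mole-rat hearts and all but 1 Damaraland heart (208) were below every guinea pig heart. In liver, Dbp scaled reads were 133, 254, 8.47 and 124 in naked mole-rats, 337, 559, 117, 334 and 527 in Damaraland mole-rats, 469, 480.0 and 742 in guinea pigs and 923 and 2085 in mice. The 2 mice were again highest, the guinea pigs overlapped the upper Damaraland livers, and the naked mole-rats were low with replicate 3 far below the rest at 10 recovered reads. By mean scaled reads Dbp was 3.61-fold lower in mole-rats in heart and 4.09-fold lower in liver. The differences were -1.32 ± 0.24, adjusted p = 0.000144, in heart and -2.05 ± 0.41, adjusted p = 0.000254, in liver. Without naked liver replicate 3 the liver difference was -1.75 and still called. Naked mole-rat minus guinea pig in liver was -2.17 ± 0.55 with all libraries and -1.56 without that one, called in both. In liver the naked mole-rat was called lower than each other species, and naked minus Damaraland mole-rat was -1.51 ± 0.48, adjusted p = 0.0105. Without naked replicate 3 that contrast was -0.90 (adjusted p = 0.0467) and no longer called, and the mouse was then called higher than each other species. Damaraland mole-rat minus mouse was -1.94 ± 0.60, adjusted p = 0.00942, a call lost without mouse replicate 2 (-1.36, adjusted p = 0.16), and Damaraland mole-rat minus guinea pig was -0.66 ± 0.52, adjusted p = 0.278. In heart both mole-rats were called lower than the mouse, with differences of -1.80 and -1.70, and against the guinea pig they differed by -0.94 and -0.84 with adjusted p = 0.0333 and 0.0334. Between the mole-rats the heart difference was -0.10 ± 0.32, adjusted p = 0.796.

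Tef (ENSMUSG00000022389), a relative of Dbp in the same factor family, was lowest in the guinea pig in both tissues. In heart its scaled reads were 1091, 1489.8 and 2156 in naked mole-rats, 906, 1184, 737, 1389 and 1870.0 in Damaraland mole-rats, 279, 243 and 167 in guinea pigs and 1725, 1798 and 1703 in mice. Those in liver were 1758, 2498, 949 and 1958 in naked mole-rats, 1266, 1701, 916, 1637 and 1704 in Damaraland mole-rats, 287, 337 and 266 in guinea pigs and 1602 and 2459 in mice. In both tissues all 3 guinea pigs were below every other library, and the other 3 species overlapped. Guinea pigs were 5.30-fold below the Damaraland mole-rat, the next species, in heart (2.03 ± 0.25, adjusted p = 2.70e-06) and 4.87-fold below it in liver (2.12 ± 0.26, adjusted p = 2.01e-06). Against the mouse the mole-rats differed by -0.19 and -0.56 in heart and by -0.23 and -0.48 in liver, none of them called. The average contrast, 0.92 ± 0.19, adjusted p = 0.000389, in heart and 0.95 ± 0.20, adjusted p = 0.00059, in liver, was below the size threshold and holds the low guinea pig value. It passed with quantile normalization in heart (1.02), with voom on the recovered reads in both tissues (1.05 and 1.02), with sample weights in liver (1.02), without naked heart replicate 1 (1.04) and, in liver, without naked replicate 3 (1.08), Damaraland replicate 3 (1.02) or mouse replicate 2 (1.10).

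**Figure D3:**
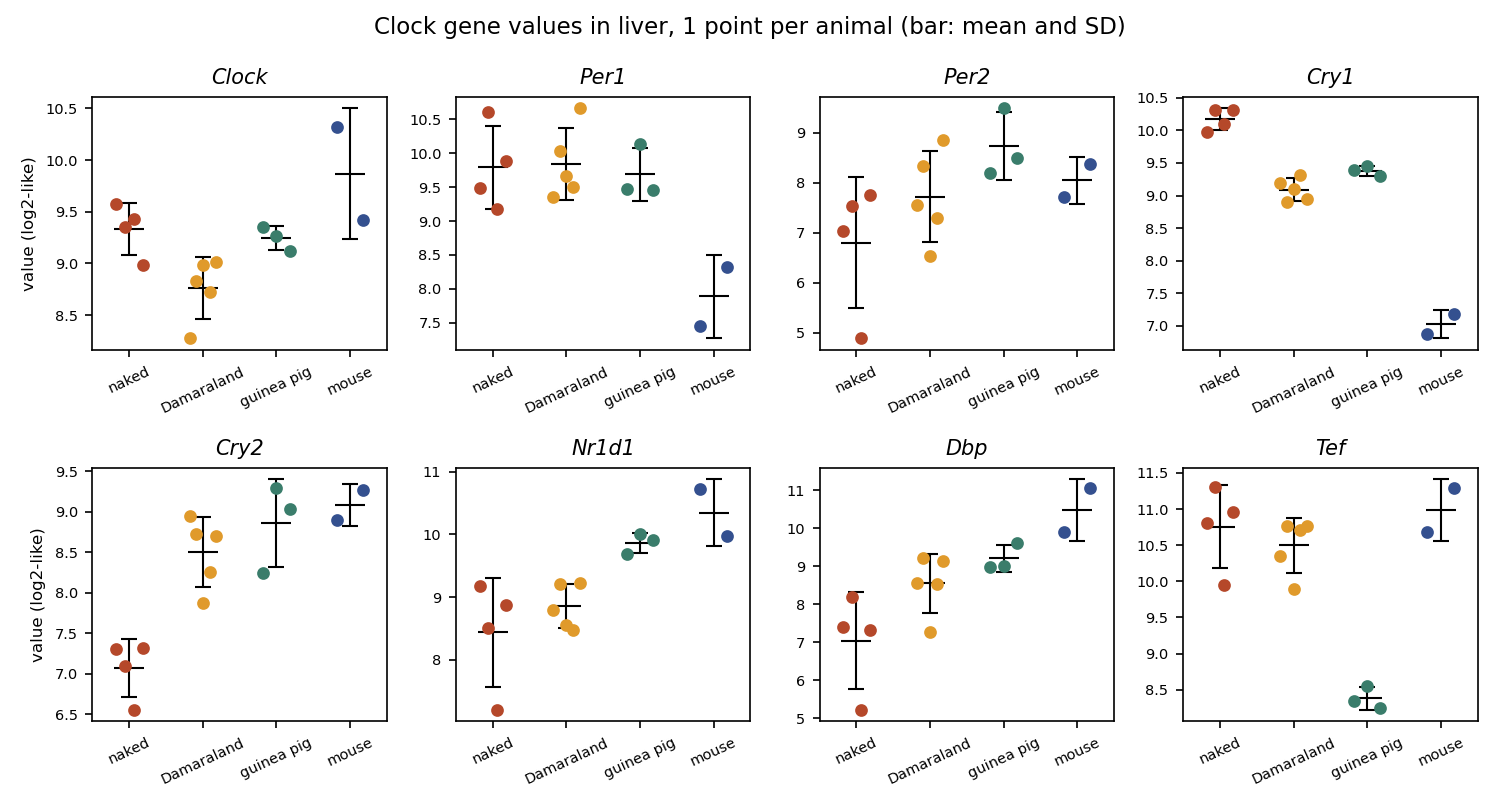
Deposited log2-like values of the 8 clock genes in liver (vertical axis) for naked mole-rat (n = 4), Damaraland mole-rat (n = 5), guinea pig (n = 3) and mouse (n = 2), with 1 point per animal and bars for mean and SD. Cry2 of the naked mole-rat and Tef of the guinea pig lie below all other libraries, and 1 naked mole-rat library lies far down for Per2, Nr1d1 and Dbp.

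Animals of the same species and tissue differed more for most of these genes than for a typical gene. The spread within species of Per2 in liver was above that of 99.7% of genes tested, and that of Dbp above 99.6%. For Nr1d1, Per1, Tef and Cry2 in liver this share was 96.4%, 96.0%, 90.6% and 90.4%, for Clock 70.5% and for Cry1 8.60%. Cry1 was the steadiest gene of the list in liver. In heart the shares were 96.7% for Per2, 96.6% for Dbp, 95.5% for Per1, 92.5% for Clock and 87.8% for Tef, but 37.6% for Cry2, 24.9% for Cry1 and 5.92% for Nr1d1. Without naked mole-rat liver replicate 3 the liver shares were 98.8% for Per2, 98.0% for Dbp, 95.6% for Per1, 87.8% for Cry2, 79.0% for Nr1d1, 75.4% for Clock, 73.8% for Tef and 11.8% for Cry1, and the SD of Nr1d1 was 0.343 in place of 0.556. From the lowest to the highest naked mole-rat liver, Per2 spanned 52.6-fold, Dbp 30.0-fold and Nr1d1 4.86-fold. These folds rest on replicate 3, with 4 recovered reads of Per2 and 10 of Dbp, and the other 3 livers spanned 1.89-fold, 2.04-fold and 1.66-fold. Across the 5 Damaraland mole-rats Per2 spanned 7.39-fold in liver and 6.07-fold in heart, Dbp 4.77-fold and 5.38-fold, and Clock 4.06-fold in heart. The 3 guinea pig hearts were close to each other for Per2 (1.12-fold), Nr1d1 (1.04-fold) and Cry2 (1.07-fold). The hour of sampling is not given for any animal, and its part in this spread was not tested.

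Within a species the livers and hearts low in Dbp were mostly those high in Arntl, the partner gene of Clock that stands opposite Dbp in the daily cycle. This comparison was chosen after the values were seen, and it is a description. Arntl scaled reads in liver were 189, 84.3, 329 and 91.6 in naked mole-rats, 190.5, 102, 353, 323 and 146 in Damaraland mole-rats, 78.3, 69.4 and 54.9 in guinea pigs and 112 and 23.2 in mice. Naked mole-rat replicate 3, at 8.47 scaled reads of Dbp, had the highest Arntl of its group, and mouse replicate 2, with the highest Dbp of all livers, had the lowest Arntl. In heart Arntl scaled reads were 262, 101 and 215 in naked mole-rats, 127, 140.5, 137, 83.6 and 62.4 in Damaraland mole-rats, 130.0, 188 and 115 in guinea pigs and 251, 135 and 385 in mice. Of the 8 groups of a species and a tissue, the library with the highest Arntl had the lowest Dbp in 7, the exception being Damaraland heart. For Per2 and Cry2 this held in 6 groups, for Tef in 5, for Per1 in 4, for Nr1d1 in 3, for Cry1 in 1 and for Clock in 0. Over 10108 genes tested in both tissues, with Arntl left out and these clock genes included, the median was 2 groups. Of them 0.712% reached at least 6 and 0.0693% at least 7, and Dbp itself is counted there. At the other end, the library with the lowest Arntl had the highest Dbp in 6 groups. That held for Cry2 in 5, for Tef in 4, for Per1, Per2 and Cry1 in 3 each, and for Nr1d1 and Clock in 0. The share of all genes at that end was not computed. Groups hold only 2 to 5 libraries, and the tissues share animals.

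**Figure D4:**
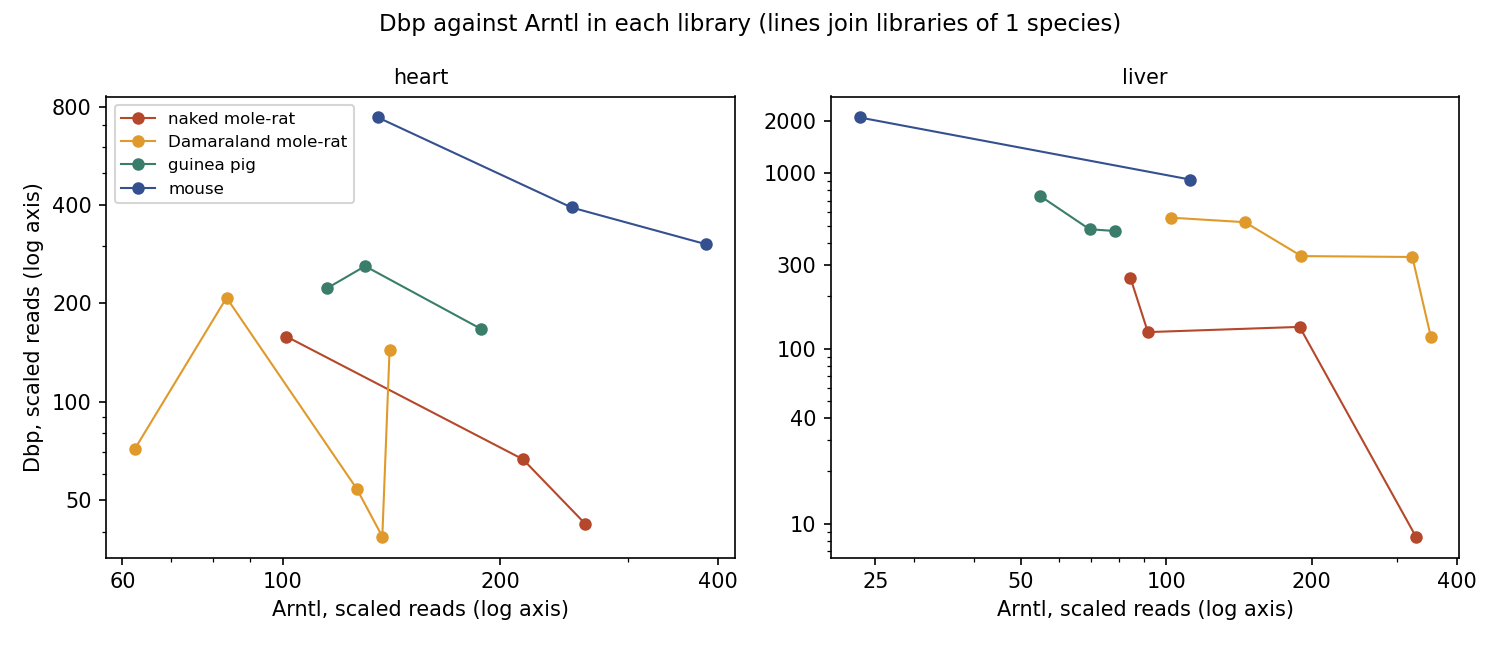
Dbp (vertical axis) against Arntl (horizontal axis) in scaled reads on log axes, heart on the left and liver on the right, with 1 point per library and lines joining the libraries of a species in order of Arntl. In liver the library with the highest Arntl of each species has the lowest Dbp, down to 8.47 scaled reads in naked mole-rat replicate 3.

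Where 1 animal gave both tissues, its order among its own species could be compared. The naked mole-rat of liver replicate 3 was that of heart replicate 1. That heart was the lowest of the 3 naked mole-rat hearts for Dbp, with 42.3 scaled reads, for Per2, with 145, for Per1, with 972, and for Tef, with 1091, and the highest for Arntl, with 262. Its liver was also the lowest of its group for Nr1d1 (111) and Cry2 (59.3), but for Nr1d1 its heart was the highest of the 3, with 704, and for Cry2 the middle one, with 1042. The Damaraland mole-rat of liver replicate 3, the lowest Damaraland liver for Dbp at 117 scaled reads and for Per2 at 57.9, was that of heart replicate 1, with 54.1 and 48.9 in heart. In that species the lowest heart was another animal, replicate 3, for Dbp (38.7) and Per2 (32.2). The 10 animals were 4 Damaraland mole-rats, 3 guinea pigs, 2 naked mole-rats and 1 mouse. They gave 10 pairs within species, with the 1 mouse in none, and pairs that share an animal are not independent. A pair had the same order in heart and liver in 7 of 10 pairs for Clock, Cry2, Nr1d1 and Dbp, in 6 for Per1 and Tef, in 5 for Per2 and in 3 for Cry1. These counts were not computed over all genes.

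Likeness of profile was measured as the root mean square difference over the 14 libraries of a tissue after each gene's mean was subtracted. In liver, Cry2 was the second nearest of 10886 genes to Per2 (0.69), behind Chac2 (0.64), and it ranked 10 for Dbp, whose nearest genes were Tdo2 (0.62) and Slc25a42 (0.68). Nr1d1 was nearest to Chac2 and Gprc5c (0.39 each), Cry2 to Usp53 (0.25) and Trafd1 (0.30), and Cry1 to Tmem230 (0.23) and Ada (0.29). Per1 was nearest to Snai2 (0.42) and Tmem39b (0.44), and Tef to Fbxo6 (0.33) and Prr14 (0.35). In heart the nearest genes were Cx3cr1 and Npc1 (0.40 each) for Dbp, Tyro3 (0.19) and Zfyve16 (0.21) for Cry2 and Crybg3 (0.28) and Pou6f1 (0.37) for Tef. Only Cry2 of the list thus stood among the 10 nearest genes of another member, in liver. Likeness was not computed without naked mole-rat liver replicate 3, the lowest naked mole-rat liver for Per2, Dbp and Cry2.

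Genes outside the list but of the same loop were tested as well. Of 10 further loop genes, 3 were called higher and 2 lower in the mole-rat average in liver, with a median difference of 0.02. In heart 2 were higher and 2 lower, with a median of -0.0046. Over all genes tested 28.1% were called in liver and 23.4% in heart. Npas2, which can stand in for CLOCK, was higher in both tissues (3.58 ± 0.18 in liver, 1.33 ± 0.19 in heart). Its scaled reads in liver were 535 to 638 in naked and 285 to 651 in Damaraland mole-rats, against 36.6 to 42.0 in guinea pigs and 0 to 10.6 in mice, with no overlap between mole-rats and outgroups. Over all genes tested 8.74% had every mole-rat liver above every outgroup liver. Hlf, the third PAR bZIP factor, was lower in both (-3.08 ± 0.15 and -2.03 ± 0.15). In liver it had 26.3 to 33.2 scaled reads in naked and 169 to 273 in Damaraland mole-rats, against 841 to 1661 and 759 to 915 in guinea pigs and mice. Npas2 in liver and Hlf in both tissues were called for each mole-rat against each outgroup, beside 6.29% of genes tested in liver and 4.68% in heart. Hlf and Dbp were thus lower in the mole-rat average in both tissues, and Tef was not called. Bhlhe40, a repressor of the loop, was higher in both (1.05 ± 0.36 in liver, 1.02 ± 0.20 in heart), and its relative Bhlhe41 was lower in heart (-1.23 ± 0.16). Bhlhe40 was highest in Damaraland hearts (1303 to 1915), and naked mole-rats (420.3 to 959) overlapped both outgroups. Bhlhe41 was high in the mouse (440.0 to 569.5), and naked mole-rats (57.1 to 88.9) overlapped the guinea pig (15.3 to 59.1). In heart Npas2 was low in the guinea pig (7.10 to 10.7), and naked mole-rats (94.0 to 218) overlapped mice (56.0 to 124). Arntl was higher in liver (1.15 ± 0.31), and Ciart, another repressor of CLOCK and BMAL1, was lower (-1.90 ± 0.34). Ciart scaled reads in liver were 0, 1.84, 0.715, 1.05 and 0 in Damaraland mole-rats, at the level of single reads, and 50.7, 77.4, 1.69 and 45.8 in naked mole-rats, of which replicate 3 was again the lowest.

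Of 12 kinases, ligases and co-regulators of clock proteins, Btrc was higher (1.07 ± 0.11) and Ncor1, a co-repressor that acts with the Nr1d1 product, lower (-1.32 ± 0.14) in heart, and Csnk1e higher (1.002 ± 0.17) and Ncor1 lower (-1.45 ± 0.17) in liver. Ncor1 had 213 to 470.4 scaled reads in naked mole-rat hearts and 5046 to 6904 in Damaraland hearts, which were above guinea pig (2976 to 3931) and mouse hearts (3726 to 3993), and in liver 141 to 344 against 3045 to 4306. Btrc had 2135 to 2514 in Damaraland hearts and 400.1 to 506 in naked mole-rat hearts, beside 502 to 760.0 in guinea pigs and 308 to 368 in mice. For Csnk1e in liver all mole-rats were above all outgroups, as they were for 8.74% of genes tested. The median differences of this list were 0.01 in heart and 0.11 in liver. Beside this list and the output genes that follow, 23.4% of all genes tested were called in heart and 28.1% in liver. Of 8 output genes, Noct, Nampt and Wee1 were lower in heart (-1.71 ± 0.17, -1.49 ± 0.16 and -1.05 ± 0.12), and in liver Noct was lower (-2.08 ± 0.18) and Lpin1 higher (1.11 ± 0.14). The medians of this list were -0.47 and -0.06. Noct, a deadenylase gene, stood at 3212 to 3716 scaled reads in mouse hearts and 104 to 159 in guinea pig hearts, and 66.0 to 233 and 211 to 313 in naked and Damaraland mole-rat hearts, so the mouse alone stood high, as it did in liver with 1235 to 1745. Nampt was low in naked mole-rat hearts (288 to 522), and the Damaraland range (1029 to 1840.4) overlapped that of the guinea pig (1486 to 2193). Lpin1 in liver was low in the guinea pig (192 to 249) and overlapped between mole-rats and mice. Wee1 was lower in every mole-rat heart than in every outgroup heart, as were 7.59% of genes tested.

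Genes that respond to hormones, handling or temperature were listed because they can move with the state of the animal at sampling. Beside these lists, 23.4% of all genes tested were called in heart and 28.1% in liver. Of 5 glucocorticoid-responsive genes Fkbp5 was higher in mole-rat heart (1.35 ± 0.21), with a median of -0.48. In liver limma and voom each called 0 of these 5, and 2 had an unadjusted p under 0.05 with limma, with a median of 0.09. Of 5 immediate-early genes tested, Egr1 was higher in heart (1.46 ± 0.23), and Atf3 and Junb were lower in liver (-1.41 ± 0.21 and -1.19 ± 0.23), with medians of -0.40 and -0.69. Egr1 was high in naked mole-rat hearts (485 to 1502), and Damaraland hearts (80.4 to 308) overlapped guinea pigs (85.1 to 106) and mice (107 to 175). Atf3 in liver was high in the guinea pig (242 to 531) and low in naked mole-rats (0 to 7.27), and Damaraland livers (55.2 to 107) were above mice (16.5 to 43.5). Junb in Damaraland livers overlapped both outgroups. Of 6 temperature-responsive genes, the cold-inducible Cirbp and Rbm3 were higher and Hsp90aa1 lower in both tissues, with medians of -0.39 and 0.28. Cirbp differed by 3.11 ± 0.27 in heart and 2.31 ± 0.20 in liver, and Rbm3 by 2.60 ± 0.12 and 3.56 ± 0.23. Cirbp and Rbm3 were called in all 4 contrasts in both tissues, beside 4.68% of genes tested in heart and 6.29% in liver. In liver Cirbp had 1130.2 to 2592 scaled reads in naked and 544 to 755 in Damaraland mole-rats, 164 to 341 in guinea pigs and 132 to 141 in mice. Hsp90aa1 had at most 3.97 scaled reads in any naked mole-rat library and 5661 to 8155 in Damaraland hearts, above mouse hearts (1899 to 3689), and how genes were assigned across species was not tested. The part of these genes in the clock results was not tested either.

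**Figure D5:**
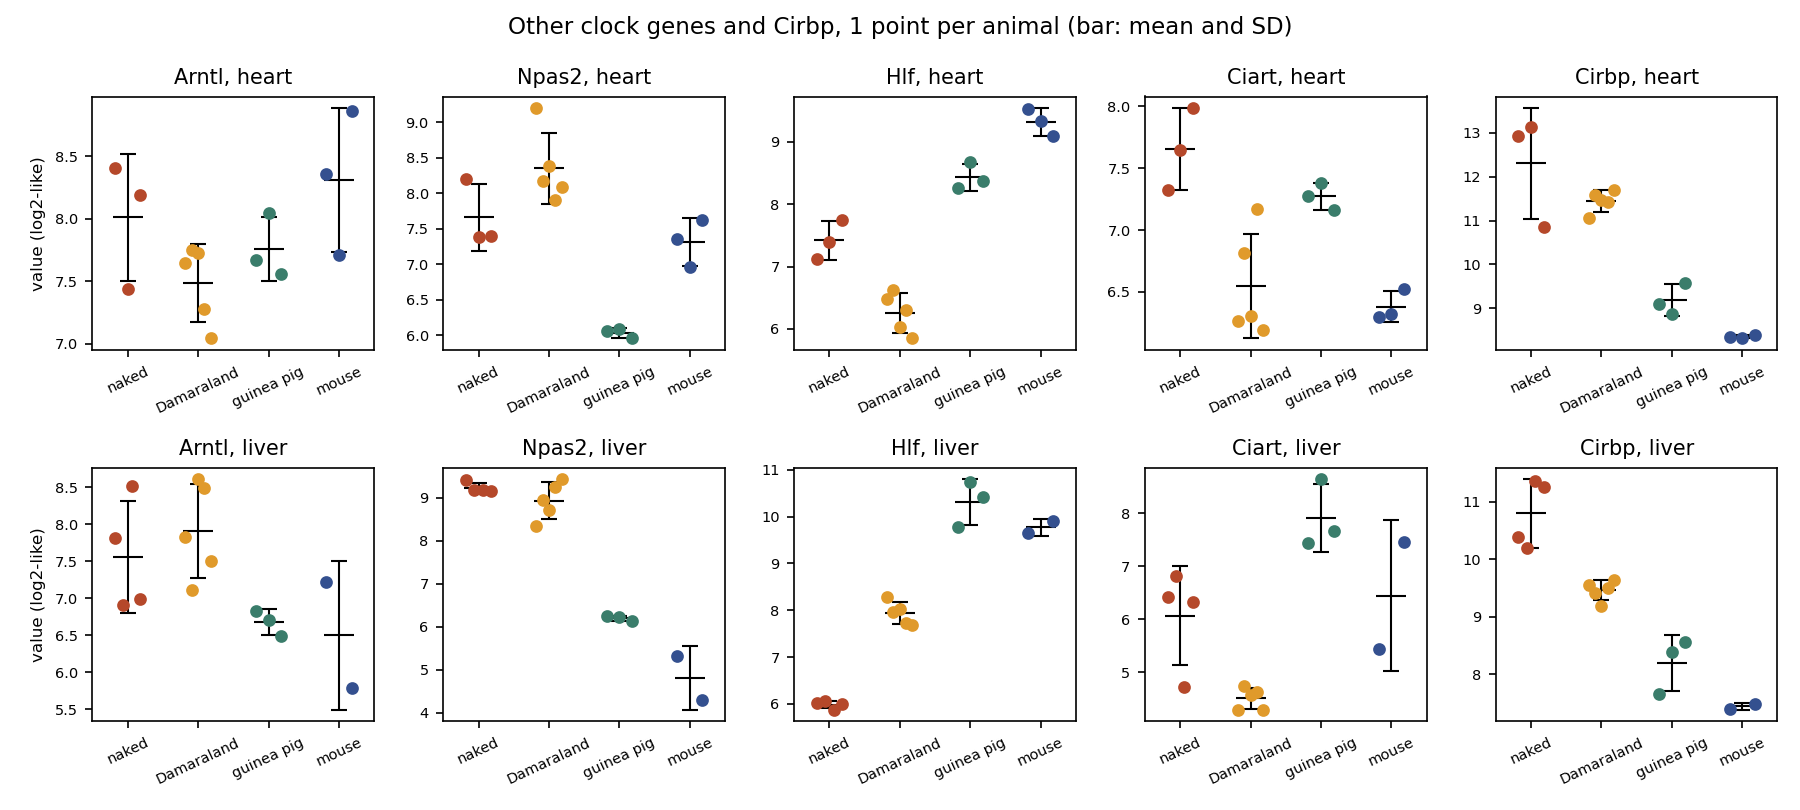
Deposited log2-like values (vertical axis) of Arntl, Npas2, Hlf, Ciart and Cirbp in heart (top) and liver (bottom), with 1 point per animal and bars for mean and SD, in naked mole-rat, Damaraland mole-rat, guinea pig and mouse. Hlf is low in both mole-rats in both tissues, and Npas2 and Cirbp are high in both in liver.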

How the data were processed

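Heart and liver total RNA, depleted of ribosomal RNA, was sequenced from 4 species, 1 library per animal and tissue. The authors deposited 1 table per tissue of values that had been variance-stabilised, close to log2 units, and 26 columns belonging to other series were not used. The submitters' processing notes name cutadapt, Salmon 013.1, DESeq2 and GRCm38 without their roles, so how genes were assigned across species is not given in the sources used here. Inverting the transformation gave whole reads, within 0.01, for 100% of values; 0 reads lie at 5.36 in heart and 4.29 in liver. Reads without molecular identifiers are not independent molecules.

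Each tissue was fitted with limma 3.58.1 (R 4.3.3), 1 coefficient per species, empirical Bayes with a variance trend, and p-values adjusted (Benjamini-Hochberg) for the 10667 heart and 10887 liver genes whose mean was at least 1 above the value of 0 reads. Calls need an adjusted p under 0.05 and a difference of at least 1. Intervals marked ± are SE. Symbols were matched for 13921 of 13928 rows. Named are the listed clock genes, the 2 genes of nearest profile for those called in the average or in 1 species alone, and at most 3 called genes per direction from each further list (loop, kinase and co-regulator, output, glucocorticoid, immediate-early and temperature genes). Genes and lists were chosen with earlier results of these data known. Animals within a group are separate, and a replicate number does not mark the same animal across groups. Scripts were tested on simulated reads with an equal dispersion for all genes. For mole-rats against outgroups, 15.3% of 2-fold and 92.4% of 4-fold changes were called in heart. In liver 23% and 96% were, so a gene that is not called may still differ. Alternatives changed the threshold, filter, scaling, variance model, block and libraries, and voom on recovered reads was chosen after seeing the data. Tables and plots used Python 3.11.15, pandas 2.3.3 and matplotlib 3.10.9.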

Additional observations from a re-analysis of the deposited data

How the results depend on the processing

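Counts of the 8 clock genes moved mainly with the size threshold. With none, heart counts were 7 for the mole-rat average (reported as 1), 2 for all 4 contrasts (0), 4 for naked minus Damaraland mole-rat (2) and 6 for 1 species alone (2). With treat against a difference of 1 they were 0, 0, 0 and 1 in heart. In liver treat gave 1 for the average (reported as 6), 0 for all 4 contrasts (1), 0 between the mole-rats (3) and 2 for 1 species alone (5). When genes under the table median were left out of the heart fit, so that Dbp and Per2 were not tested, the average gave 0 and the mole-rat contrast 1. Quantile normalization and voom each gave 2 for the heart average, and voom gave 4 in 1 species alone. No scaling moved the median of all genes by 0.1. Leaving out 1 library gave 1 to 2 for the heart average, 0 to 0 for all 4 contrasts, 2 to 3 between the mole-rats and 2 to 3 for 1 species alone, and in liver 5 to 6, 0 to 1, 2 to 4 and 5 to 5. The 1 liver call in all 4 contrasts, Nr1d1, was lost without guinea pig replicate 2 or 3, Damaraland replicate 3 or 4, or mouse replicate 1. For single clock genes in the average and in naked minus Damaraland mole-rat, 426 of the fits without 1 library kept direction and call, 10 lost and 6 gained a call and 6 turned, and under the other alternatives these counts were 285, 12, 15 and 4. For the 5 other species pairs they were 1080, 17, 11 and 12 without 1 library and 736, 26, 25 and 3 otherwise, and none of the differences that turned was called as reported, the largest in size being 0.36. Dbp in heart, naked minus Damaraland mole-rat, was -0.10 and became 0.029 with voom, and ran from -0.41 to 0.13 without 1 library (0.0045 and 0.10 without Damaraland replicates 2 and 4, 0.13 without naked replicate 1). Per1 in liver, the same contrast, was -0.05 and became 0.12 with sample weights, and ran from -0.32 to 0.16 (0.16 without Damaraland replicate 5, 0.05 and 0.16 without naked replicates 1 and 3). The cause was not tested.

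Replicate numbers belong to separate animals in each species. Same-number deviations correlated at -0.26 to 0.30 over 18 pairs in heart, 2 of them over 0.1, and at -0.23 to 0.15 over 16 pairs in liver, 5 over 0.1, so the numbers were not used as pairs. With the replicate block the heart counts were 1, 0, 2 and 2 and the liver counts 6, 1, 3 and 6, the last with Per2 called higher in the guinea pig alone. The block turned naked minus Damaraland mole-rat to 0.10 for Dbp in heart and to 0.16 for Per1 in liver. Naked mole-rat liver replicate 3, with 19122251 recovered reads in all, held 4 and 10 reads of Per2 and Dbp, so counting error is wide for these values.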
